A study of Schizosaccharomyces pombe with 6 samples.

Results

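The SUMO pathway genes of fission yeast (Schizosaccharomyces pombe) were followed through 3 lists of regions called from chromatin immunoprecipitation with an antibody against the Pk epitope. The genes were taken by name or synonym from the ASM294v3 annotation, which gave 10 members of 5113 protein-coding genes on the nuclear chromosomes. They are pmt3, rad31, uba2, hus5, pli1, nse2, ulp1, ulp2, slx8 and cdc48. The name fub2 matched 2 genes. It is a synonym of uba2, annotated as an activating enzyme of SUMO, and the symbol of another gene, annotated as a PI31-type proteasome regulator, so uba2 was used. The members pli1 and nse2 are themselves the tagged loci.

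The 3 strains were an untagged strain, a strain with Pli1-12Pk and a strain with Nse2-12Pk, each represented by 1 ChIP library and 1 input. All were growing in rich YES medium when 100 mL of culture was mixed with 10 mL of a budding yeast culture that carried Ku70-cMyc as calibrator, and the mixture was crosslinked in 1% formaldehyde for 15 min. Neither the number of clones behind a strain nor the way the tag was inserted is given in the sources used here. Each strain has a single ChIP library and hence no replicate. The strains were not tested against each other, and counts over the members are set beside the same count over all protein-coding genes. Each called region has a start, an end, a summit (its position of highest signal) and the authors' score, whose scale is not stated and which ranks regions within a list only. The read depth behind the lists is unknown here.

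SUMO is a small protein that is joined to other proteins in a chain of enzyme steps like that of ubiquitin. In fission yeast Pmt3 is SUMO itself, Rad31 and Uba2 (Fub2) form its activating enzyme, Hus5 is the conjugating enzyme (Ubc9 in other species), and Pli1 and Nse2 are ligases that choose the targets. Ulp1 and Ulp2 are proteases, Ulp1 known for maturing SUMO and both for removing it, Slx8 is a ubiquitin ligase directed at SUMO-bearing proteins, and Cdc48 is an ATPase that extracts modified proteins from complexes and chromatin. These are the genes for the machinery. A region over such a gene is a call on its DNA and says nothing of the SUMO state of any protein.

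In the untagged library, which shows what the antibody recovered with no epitope present, 6 of the 10 members were touched by a peak, and 4 had a summit in their own coding extent (background 51.2% of all protein-coding genes). The summits of these peaks are shown because they are the positions of finest detail that the lists give inside the members. Each line is 101 coding bases of the ASM294v3 sequence from RefSeq on the coding strand, 5′ to 3′, with the 21 bases centred on the untagged summit in capitals.
cdc48 (I:1308641-1308741, plus strand): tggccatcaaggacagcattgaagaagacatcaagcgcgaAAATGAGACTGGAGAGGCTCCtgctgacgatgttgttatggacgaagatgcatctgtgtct
ulp1 (II:2368487-2368587, plus strand): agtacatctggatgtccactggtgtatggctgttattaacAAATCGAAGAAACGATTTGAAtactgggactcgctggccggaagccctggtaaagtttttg
pli1 (I:910420-910520, plus strand): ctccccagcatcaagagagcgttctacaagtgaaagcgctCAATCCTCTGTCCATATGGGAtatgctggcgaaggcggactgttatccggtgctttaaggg
uba2 (II:2296012-2296112, plus strand): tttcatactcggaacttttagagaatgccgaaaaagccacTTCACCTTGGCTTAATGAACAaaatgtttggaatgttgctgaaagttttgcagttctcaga
The GC content of these stretches was 48.5% for cdc48, 44.6% for ulp1, 52.5% for pli1 and 37.6% for uba2, against 36.1% for the genome. The genome value includes noncoding sequence, and none was computed for coding sequence alone. Over the wider 500 bp around the summit, the 7 peaks that touched a member had a median GC content of 39.2%, below the median of 41.4% over all 3535 untagged peaks.

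The count of 6 touched members lay near the background, since 54.3% of all protein-coding genes were touched. The members touched were pmt3, uba2, pli1, ulp1, slx8 and cdc48, and those not touched were rad31, hus5, nse2 and ulp2. Untagged peaks covered 26.3% of the summed length of the members, against 23.4% for all protein-coding genes. On coding extents the order reversed, with 28.4% for the members and 29.7% for all protein-coding genes. The highest score touching each of the 6 ran from 55 to 694 with a median of 170, against a median of 147 over all 2774 touched genes. With scores of at least 100 the count was 4 (38.1% of all genes), by summit inside the gene 6 (53.9%), with 500 bp added on both sides 8 (63.5%), and with at least 50% of the gene covered 2 (13.3%), which were ulp1 and cdc48. Each of the 10 members had an untagged peak in it or within 1 kb, as had 75.1% of all genes, a window chosen after the distances were seen.

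**Figure D1:**
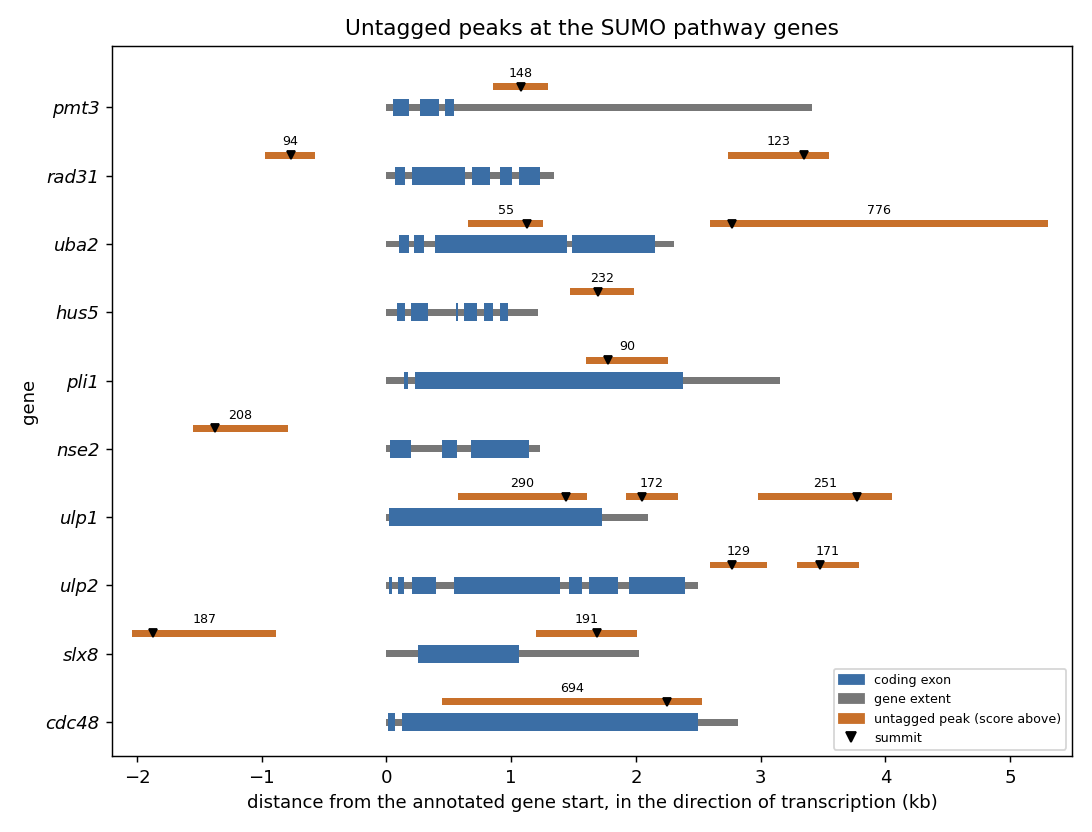
Untagged peaks within 2 kb of each member, drawn against distance from the annotated gene start in kb, with coding exons as blue boxes, the gene extent in grey, peaks as orange bars with the authors' score above and summits as triangles. The peaks at pmt3 and slx8 lie past the end of the coding exons, and the peak at cdc48 covers most of the gene.

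The SUMO gene was touched only in its annotated 3′ UTR, with the summit at 31.6% of the gene's annotated length. The gene pmt3 (II:2506845-2510260) has 3416 bp of annotated extent but only 354 coding bases, in 3 coding exons. Its single peak (II:2507703-2508137, score 148, rank 1530 of 3535) lay wholly past the coding exons, in the annotated 3′ UTR. The summit at 2507926 was at the same time inside the coding sequence of tmf1, a neighbouring gene on the opposite strand. The peak held 0 bp of pmt3 coding sequence, and the lists carry no strand, so it cannot be given to either gene.

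Of the genes for the activating and conjugating enzymes, uba2 had a called peak of low score and rad31 and hus5 had none. The peak in uba2 (II:2295589-2296192) had a score of 55, rank 3120 of 3535, and its summit stood at 50.1% of the coding extent. That peak also overlapped the long noncoding RNA gene SPNCRNA.5584. A far higher peak (score 776, rank 57) began 287 bp past the end of uba2, with its summit in the coding sequence of pfk1, a glycolytic phosphofructokinase gene. The partner gene rad31 (I:1198391-1199733) was not touched. A peak of score 94 lay 576 bp upstream in SPAC4C5.03, and a peak of score 123 lay 1400 bp downstream in sir1, which codes for a subunit of sulfite reductase. For hus5 (I:1094262-1095474), also untouched, the nearest peak lay 257 bp downstream (score 232) with its summit in the coding sequence of SPAC30D11.14C, annotated as an RNA-binding protein gene.

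The proteases differed from each other. In ulp1 (II:2367095-2369193) 2 peaks covered 58.0% of the gene. The higher one (II:2367665-2368704, score 290, rank 576) lay wholly in coding sequence, with the summit at 83.2% of the coding extent. This higher peak also overlapped the long noncoding RNA gene SPNCRNA.1507. The other (II:2369017-2369431, score 172) had its summit in the 3′ UTR of ulp1, inside the coding sequence of pdc2, a gene of mRNA decapping on the opposite strand. The gene ulp2 (I:1764233-1766733) had no peak, and the closest one stopped 93 bp from its downstream end. That peak (score 129) and a further one at 789 bp (score 171) both had their summits in coding sequence of ptr8, which codes for a helicase subunit of TFIIH.

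At the point where SUMO meets ubiquitin, cdc48 held the highest score of all members. Its peak (I:1306887-1308974) was 2088 bp long with a score of 694, rank 81 of 3535, and 71 of the 2774 touched genes had a higher score. It covered 74.0% of the gene, and the summit stood at 89.9% of the coding extent, 251 bp before the end of the stop codon. The peak at slx8 (II:1288201-1289012, score 191, rank 1106) covered 40.1% of the gene but 0 bp of its coding sequence. Its summit was in the coding sequence of apn2, an AP-endonuclease gene of base excision repair on the opposite strand. As at pmt3, the touch fell in the annotated 3′ UTR and coincided with the coding sequence of a convergent neighbour.

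Counted on coding extents, 4 of 10 members were touched (uba2, pli1, ulp1 and cdc48), against 51.7% of all protein-coding genes. The members touched only outside their coding extent, pmt3 and slx8, are 2 of 6. Over the genome such genes numbered 131, which is 4.72% of touched genes and 2.56% of all protein-coding genes. The 4 summits in members' own coding sequence all lay past the midpoint of the coding extent, at 50.1% in uba2, 72.9% in pli1, 83.2% in ulp1 and 89.9% in cdc48. Over all genes 58.5% of 3422 such summits lay past the midpoint, with a median position of 57.9%.

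**Figure D2:**
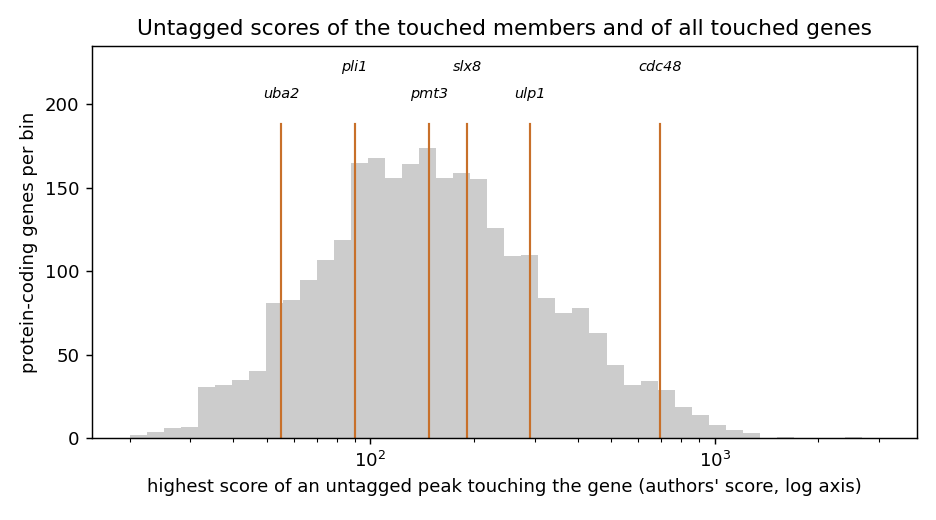
Histogram of the highest untagged score touching each of 2774 touched protein-coding genes (authors' score, log axis; genes per bin), with orange lines at the 6 touched members. The lines for uba2 (55) and pli1 (90) lie below the median of 147, pmt3 (148) lies just above it, and cdc48 (694) lies in the upper tail.

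The tagged loci, pli1 and nse2, each carry the DNA for the tag in 1 of the strains. By the usual form of such names, Pli1-12Pk and Nse2-12Pk carry the tag after the protein, which would place it at the end of the coding sequence. The last 60 coding bases of each gene are shown for that reason, from the same sequence and on the coding strand, with the stop codon in capitals. The position of the tag itself was not read from the data.
pli1 (I:911015-911074, plus strand): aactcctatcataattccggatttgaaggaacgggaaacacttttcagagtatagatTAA
nse2 (I:3089583-3089642, minus strand): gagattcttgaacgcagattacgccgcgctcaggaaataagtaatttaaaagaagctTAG

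In the Pli1 list, pli1 (I:908696-911854) lay inside a region of 45863 bp with a score of 2569, rank 149 of 299. The summit of that region was 9948 bp from the gene, in rps102, a ribosomal protein gene, and inside an untagged peak of score 368. From the stop codon of pli1 the nearest Pli1 summit was 12326 bp away and the nearest gap between regions 18733 bp away. In the Nse2 list, nse2 (I:3089494-3090728) lay inside a region of 1345222 bp with a score of 12395, rank 28 of 62. Its summit was 69693 bp from the gene, in rps1001, another ribosomal protein gene, inside an untagged peak of score 1268. From the stop codon of nse2 the nearest Nse2 summit was 69782 bp away and the nearest gap 212409 bp away. Neither tagged locus held a summit or a gap of its own list, and neither lay in a region of high rank. Most genes share that absence. Even within 2 kb, 12.4% of all protein-coding genes had a Pli1 summit and 12.0% a Pli1 gap. For Nse2 the shares within 2 kb were 2.01% and 1.43%.

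The tagged loci were as unmarked in the list of the other ligase. The gene pli1 lay in an Nse2 region of 738666 bp (score 10897, rank 32 of 62) whose summit was 163450 bp away, in plb1, a lysophospholipase gene. The gene nse2 lay in a Pli1 region of 212061 bp (score 3110, rank 111 of 299) whose summit was 41729 bp away, 7 bp from the tRNA gene SPATRNASER.02. In the untagged list pli1 had a peak (I:910294-910954, score 90, rank 2447) that ended 120 bp before the last base of the stop codon. The gene nse2 had none, and the nearest untagged peak (score 208) lay 789 bp upstream with its summit in taz1, which codes for a telomere-binding protein.

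Around all 10 members the tagged lists formed unbroken cover. Each member lay wholly inside 1 Pli1 region, as did 98.5% of all protein-coding genes, and wholly inside 1 Nse2 region, as did 99.7%. The Pli1 list covered 99.3% of the genome and the Nse2 list 99.8%, so being inside a region separates no gene from another. The members also share regions. They lay in 9 Pli1 regions, with rad31 and hus5 in the same one, and in 6 Nse2 regions, with pmt3, uba2 and ulp1 in one of 1548631 bp, pli1 and hus5 in another, and rad31 and cdc48 in 1 more. Values that members take from a shared region are 1 observation.

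Tagged summits, the finer positions, fell outside every member. A Pli1 summit lay within 5 kb of 1 of 10 members (pmt3), against 22.5% of all protein-coding genes. Within 2 kb the count was 0 (12.4%) and within 10 kb it was 2 (37.8%), with pli1 added. An Nse2 summit lay within 5 kb of 0 of 10, against 3.85%, and within 10 kb also of 0, against 7.31%. The summit near pmt3 was 3459 bp away, in the ribosomal protein gene rpl2101 and inside an untagged peak of score 261, and its region had a score of 1953 (rank 194 of 299), the lowest among the members' Pli1 regions. The distance from a member to the summit of its region had a median of 21204 bp for Pli1 (3459 to 55307 bp), beside 20615 bp over all genes. For Nse2 it was 78032 bp (18421 to 304463 bp), beside 137660 bp.

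**Figure D3:**
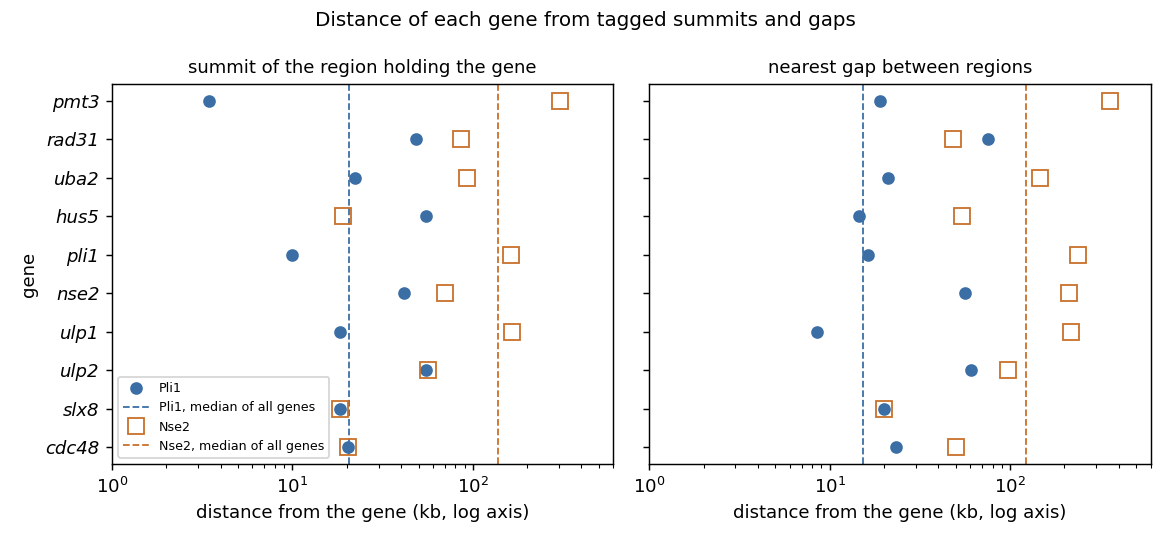
Distance of each member (kb, log axis) from the summit of the tagged region that holds it (left) and from the nearest gap between tagged regions (right), for Pli1 (filled circles) and Nse2 (open squares), with dashed lines at the medians over all protein-coding genes. The nearest pairing is pmt3 with a Pli1 summit at 3459 bp, and both lists have nearly the same summit distance at slx8, cdc48 and ulp2.

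For 3 members the regions holding the gene had summits in both tagged lists that fell close together, though far from the member itself. The same share over all protein-coding genes was not computed, so the count of 3 is descriptive only. At slx8 both lists had their summit at the small nucleolar RNA gene snoU14, 18443 bp away for Pli1 (region score 16516, rank 11 of 299) and 18421 bp away for Nse2 (24090, rank 13 of 62), with 22 bp between them. At cdc48 both were in the ribosomal protein gene rpl1802, 20326 bp away for Pli1 (3002, rank 117) and 20341 bp away for Nse2 (8774, rank 42), with 15 bp between them. At ulp2 both were in psu1, annotated as a beta-glucosidase gene, 55307 bp away for Pli1 (5714, rank 46) and 56271 bp away for Nse2 (14850, rank 23), with 964 bp between them. Each of these pairs lay in an untagged peak, with scores of 742, 782 and 948 in the same order.

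For the remaining members the regions holding the gene had their summits at different genes in the Pli1 and Nse2 lists. This compares holding regions only. The Nse2 summits for rad31 (in rpl1802) and nse2 (in rps1001) were at genes where another Pli1 region also had its summit. The region of ulp1 in the Pli1 list (score 2753) had its summit 18348 bp away in abz2, a gene of folate synthesis, and that of uba2 (score 2800) 22083 bp away in the tRNA gene SPBTRNAPRO.06. The region shared by rad31 and hus5 (score 16223, rank 12 of 299) had its summit in mug115, 48133 bp from rad31 and 54784 bp from hus5. That Pli1 summit lay 398 bp from a gap of 508 bp in the Nse2 list, itself within mug115. In the Nse2 list the region of pmt3, uba2 and ulp1 (score 30303, rank 8 of 62) had its summit in eno101, an enolase gene, 304463, 92552 and 164713 bp away. The Pli1 summit nearest to hus5 belonged to another region and was 16071 bp away at SPNCRNA.2469 (score 4290). The Nse2 summit nearest to hus5 was 18958 bp away in plb1. Of the 9 distinct Pli1 summits, 6 lay in untagged peaks, and the other 3 were at mug115, SPBTRNAPRO.06 and SPATRNASER.02. Of the 6 distinct Nse2 summits, all 6 did. Over the whole lists the shares were 56.2% for Pli1 and 66.1% for Nse2.

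Gaps, the short stretches between called regions, were also away from the members. No member had a Pli1 gap within 5 kb (0 of 10, against 22.1% of all genes) or an Nse2 gap within 5 kb (0 of 10, against 2.99%). Within 10 kb the counts were 1 for Pli1 gaps (36.8%) and 0 for Nse2 gaps (5.79%). The closest Pli1 gap was 8526 bp from ulp1 and 157 bp long, and the next was 14588 bp from hus5 in ptl3. The closest Nse2 gap was 20094 bp from slx8 and 527 bp long. The median distance to a Pli1 gap was 20498 bp for the members and 15274 bp for all genes, and to an Nse2 gap 121854 and 121989 bp. No member held a 50-mer that occurs more than once in the genome, so none of their sequence is lost to unique mapping at that length.

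Among themselves, the touched and untouched members differed in length, base composition and introns, none of which the choice of genes used. A touch needs only 1 bp of overlap, so a longer gene is more readily touched by construction. The 6 touched members were 2024 to 3416 bp long, and the 4 untouched were 1213 bp (hus5), 1235 bp (nse2), 1343 bp (rad31) and 2501 bp (ulp2). The GC content was 35.9 to 42.3% in the touched members, highest in cdc48, and 32.1 to 35.4% in the untouched, lowest in nse2. These member ranges did not overlap. Over all protein-coding genes they overlapped widely, at 30.5 to 53.8% in touched and 24.4 to 50.6% in untouched genes. The touched members had 0 to 3 introns and the untouched 2 (nse2), 4 (rad31), 5 (hus5) and 6 (ulp2). The same direction was present over all genes. Touched genes had a median length of 2188 bp and untouched ones 1308 bp, their median GC content was 37.9% and 35.4%, and 60.9% of 2642 genes without introns were touched against 47.2% of 2471 genes with introns.

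**Figure D4:**
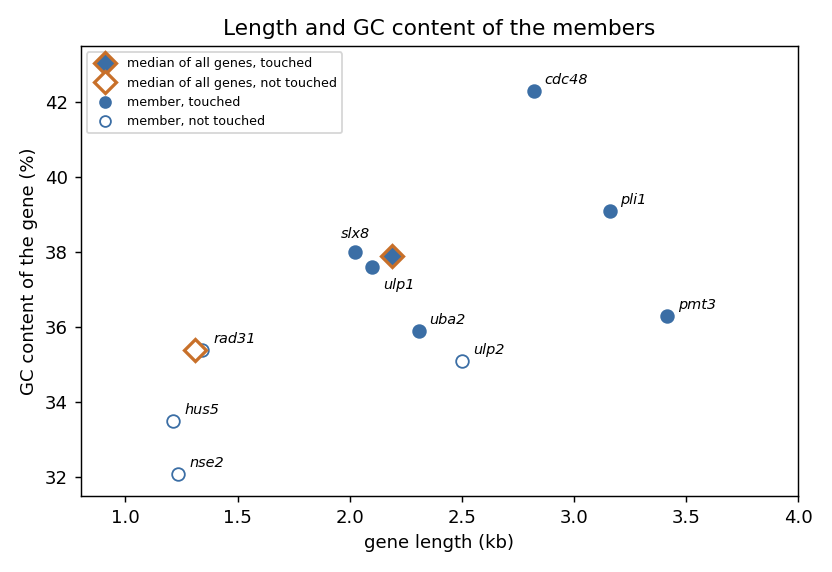
Gene length (kb) against GC content (%) for the 10 members, filled where an untagged peak touched the gene and open where none did, with diamonds at the medians of all touched and all untouched protein-coding genes. Touched members lie above 35.9% GC or at it, untouched members at 35.4% or below.

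Of the neighbouring pathway lists, 4 had shares of touched genes near or somewhat above the 54.3% of all protein-coding genes, and the Smc5/6 list had a lower one, with 8 genes in it. These differences were not tested. A wider SUMO list, which adds the Slx8 partners rfp1 and rfp2, the Cdc48 cofactors ufd1 and npl4, and rad60, which codes for a repair protein with SUMO-like domains, had 9 of 15 genes touched (54.3% of all genes). Its 5 highest touching scores were in cdc48 (694), ulp1 (290), slx8 (191), pmt3 (148) and pli1 (90). The added genes scored low, with 87 for rad60, 72 for ufd1 and 55 for npl4, and rfp1 and rfp2 lay 4549 and 1333 bp from the nearest peak. Of the 8 genes of the Smc5/6 complex, in which Nse2 works, 2 were touched, smc6 and nse5, each with a score of 60, beside 54.3% of all genes. Untagged peaks covered 6.94% of the list's length, beside 23.4% for all genes. The other 6 (smc5, nse1, nse2, nse3, nse4 and nse6) had no peak. Pli1 summits lay within 5 kb of 2 of these 8 genes, smc6 (534 bp, in rpl2802) and smc5 (3207 bp, at the tRNA gene SPATRNAASP.02), beside 22.5% of all genes. The same count was 3 of 13 in the ubiquitin and Cdc48 list (ubi4, ubi2 at 1392 bp and rpn10 at 4231 bp), 1 of 10 in the nuclear pore list (nup85, 4889 bp), 1 of 6 in the SUMO substrate list (swi6, 1955 bp) and 1 of 15 in the wider SUMO list (pmt3).

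In the ubiquitin and Cdc48 list 8 of 13 genes were touched (54.3% of all genes), led by cdc48 (694), ubi4 (594), ubi3 (332), rpn11 (222) and uba1 (133), the ubiquitin-activating enzyme gene also called ptr3. The polyubiquitin gene ubi4 (II:1044271-1045592) was the member of these lists with all 3 summits inside it. Its Pli1 region had a score of 9116 (rank 20 of 299) and its Nse2 region a score of 15270 (rank 22 of 62), with 116 bp between the summits, and the untagged summit lay 556 bp from the start codon, beside 577 bp for Pli1 and 693 bp for Nse2. Of 1273 50-mers in ubi4, 1001 occur more than once in the genome, and the lists rest on uniquely mapped reads. In all, 25 protein-coding genes held both a Pli1 and an Nse2 summit. In the nuclear pore list 7 of 10 were touched, beside the same 54.3%, led by nup124 (411), nup60 (181), nup132 (180), nup61 (142) and nup211 (93). In the list of proteins known to carry SUMO 4 of 6 were touched, again beside 54.3%: clr4 (502), a histone methyltransferase gene, tpz1 (318), which codes for a telomere protein, rqh1 (205), a RecQ helicase gene, and swi6 (42), which codes for an HP1 protein. The highest peaks at clr4 and tpz1 had their summits in the 3′ UTR, inside the coding sequences of meu6 and ypt5, as at pmt3 and slx8.

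**Figure D5:**
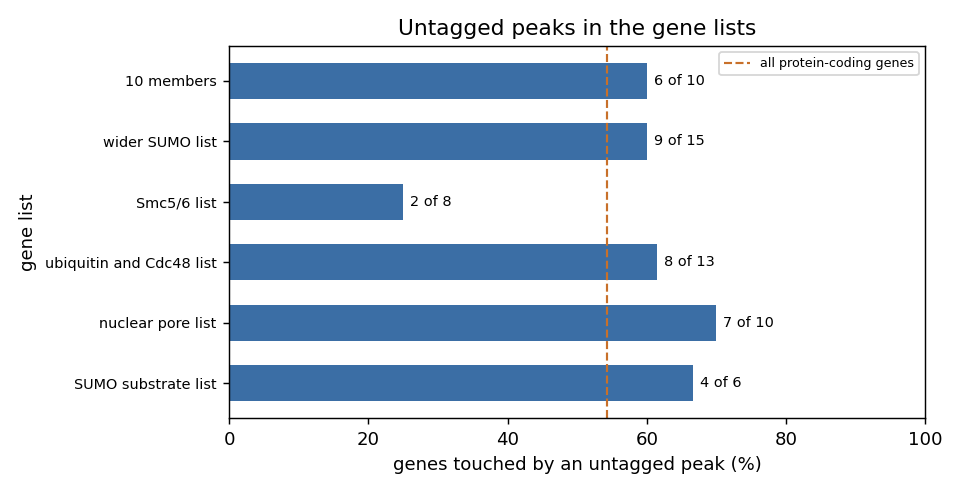
Share of genes touched by an untagged peak (%) in the 10 members and 5 lists, with counts at the bars and a dashed line at 54.3% for all protein-coding genes. The Smc5/6 bar (2 of 8) is the shortest and the nuclear pore bar (7 of 10) the longest, and the lists share genes with the members.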

How the data were processed

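The deposited files are lists of regions, 1 list per ChIP library, not pooled. Per the file headers, the lists derive from a p-value track of uniquely mapped S. pombe reads. Per the submitters' processing notes, the tools included cutadapt, Bowtie2, SAMtools and MACS3, and the build named is sacCer3, that of the calibrator. Per the labels' protocols, ratios of ChIP to input were normalised to the calibrator. The authors' deposited score is a whole number of unstated scale, and 3 further columns (fold enrichment, p and q) hold 0 throughout. The sources used here give neither the calling threshold nor the read depth, and the 3 inputs were not analysed here.

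Names and versions of the sequences in the lists are those of ASM294v3, and no region runs past a chromosome end. A gene was touched by an overlap of at least 1 bp with its annotated extent, UTRs included. Gaps are stretches outside all regions of a list. Overlaps and distances were computed in Python 3.11.15 with NumPy 2.4.6 and drawn with Matplotlib 3.10.9. Tested on simulated data, the code found 200 of 200 genes planted with a peak among 5113. The members and lists were chosen with earlier results of these data known. The text names all members, the genes at their summits and in their peaks, and in each list the touched genes, or the 5 with the highest scores. The genes at neighbouring peaks, ubi4 as the gene with 3 summits, and the features of length, GC content and introns were chosen after their values were seen.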

Additional observations from a re-analysis of the deposited data

How the results depend on the processing

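No paired analysis was possible because each strain has 1 ChIP library and the lists come from no test. The count of touched members was 6 of 10 at 1 bp of overlap (54.3% of all protein-coding genes). It was 2 when at least 50% of the gene had to be covered (13.3%). It stayed within 1.5 times of 6 under 6 further settings, whose shares over all genes also moved. The counts were 6 by summit (53.9%) and 4 on coding extents (51.7%). They were 4 with scores of at least 100 (38.1%) and 8 with 500 bp added on both sides (63.5%). Without the tagged loci 5 of 8 members were touched (54.3%). With the gene whose symbol is fub2 in place of uba2, a setting chosen after seeing the data, 5 of 10 were (54.3%). The covered share of the members' length was 26.3% in the main setting, above the 23.4% of all protein-coding genes. On coding extents it was 28.4%, below the 29.7% of all protein-coding genes. The members' share was 20.6% with scores of at least 100, 27.7% with peaks within 500 bp merged and 29.1% without the tagged loci. Members with a Pli1 summit numbered 0 within 2 kb (12.4% of all genes) and 2 within 10 kb (37.8%), beside 1 within 5 kb (22.5%). Those with a Pli1 gap numbered 1 within 10 kb (36.8%), beside 0 within 5 kb (22.1%). Nse2 summits and gaps stayed at 0 at 2, 5 and 10 kb. Over all genes the shares were 2.01, 3.85 and 7.31% for summits and 1.43, 2.99 and 5.79% for gaps. At least 50% of the gene was covered in 2 of 15 (wider SUMO), 0 of 8 (Smc5/6) and 3 of 13 (ubiquitin and Cdc48) genes. It was so in 0 of 10 (nuclear pore) and 0 of 6 (SUMO substrates), beside 13.3% of all genes. With scores of at least 100 they had 4 (wider SUMO), 0 (Smc5/6), 5 (ubiquitin and Cdc48), 4 (nuclear pore) and 3 (SUMO substrates), beside 38.1% of all genes. Both of these rules keep fewer genes by construction. Depth is unknown, so an untouched gene is one where no peak was called, and not one without signal.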
